A study of Mus musculus with 12 samples.

Results

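The ATF4 stress pathway and the genes that supply amino acids were followed in mouse CD8+ T cells, over 35 genes picked by symbol in GENCODE mouse release M21. They fall into 11 transcription factors and stress regulators, 13 enzymes of serine, one-carbon and amino acid synthesis and 11 amino acid transporters. Of the 55487 gene identifiers in the count tables, 36 carried these symbols, since Ddit3 has 2 identifiers. Each symbol had 1 identifier that passed the low-count filter in both comparisons. The second Ddit3 identifier held at most 1 count in any sample, did not pass and is not described further.

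The cells were OT-1 CD8+ T cells, whose transgenic T cell receptor recognises an ovalbumin peptide, and each of 4 groups held 3 samples. Female and Male cells came from the spleens of mice of either sex and were activated for 3 days with beads that bind CD3 and CD28, together with IL2. WT and KD cells were a separately prepared set of male CD8+ T cells kept for 3 days after electroporation, and whether they were stimulated with the same beads is not stated. KD cells were given Cas9 and a guide RNA against Kdm5d, a Y-linked histone demethylase gene, and WT cells were given guide RNA and no Cas9, so Cas9 and reduced Kdm5d cannot be told apart. The age of the mice and how many stood behind each group are not given in the sources used here, so p-values measure only the spread between these samples, which may be technical.

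ATF4 is a transcription factor of the integrated stress response. Kinases such as PERK (Eif2ak3), which senses unfolded protein in the endoplasmic reticulum, and GCN2 (Eif2ak4), which senses uncharged tRNA, phosphorylate the initiation factor eIF2, and this lowers general translation while more ATF4 protein is made from its messenger RNA. ATF4 then binds C/EBP-ATF response elements near genes for amino acid synthesis, amino acid uptake and tRNA charging. In activated T cells serine, glycine and folate-bound carbon units feed nucleotide synthesis, and glutamine and large neutral amino acids enter through transporters that rise with activation. Part of the control of ATF4 is on translation, which RNA counts do not show.

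The core of the response element, written TGATGNAA, was searched on both strands of RefSeq promoter windows (GRCm38.p6), which run from 250 bases before to 50 bases after each annotated start. The table had windows for 31 of the 35 genes and none for Slc1a5, Cth, Slc7a5 and Slc38a1. A match was present for 8 of the 31 (25.8%), against 4.51% of 27025 gene symbols and 3.97% of 32851 windows. The genes were picked as an ATF4 and amino acid supply list, so this difference is not an independent result. The stretches around these matches are shown because the genes that carry them include those with the largest changes described below. Each is written 5′ to 3′ on the gene's own strand with the match in capitals, so that TTGCATCA and TTACATCA are matches on the opposite strand.
Chac1, plus strand, chr2:119350999-119351068: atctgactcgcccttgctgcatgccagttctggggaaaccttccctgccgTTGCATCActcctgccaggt
Asns, minus strand, chr6:7693213-7693282: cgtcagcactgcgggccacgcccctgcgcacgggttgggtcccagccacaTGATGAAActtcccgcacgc
Pycr1, minus strand, chr11:120643832-120643901: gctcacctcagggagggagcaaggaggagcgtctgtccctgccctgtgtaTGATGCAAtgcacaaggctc
Slc1a4, minus strand, chr11:20332710-20332767: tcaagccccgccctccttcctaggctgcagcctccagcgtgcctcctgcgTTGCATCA
Trib3, minus strand, chr2:152344028-152344057: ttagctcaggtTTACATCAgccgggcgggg
Atf3, minus strand, chr1:191183424-191183493: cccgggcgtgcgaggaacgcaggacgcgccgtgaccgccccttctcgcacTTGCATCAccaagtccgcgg
Slc7a11, minus strand, chr3:50443641-50443729: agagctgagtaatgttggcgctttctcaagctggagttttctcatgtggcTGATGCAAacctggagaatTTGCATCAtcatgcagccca
Vldlr, plus strand, chr19:27216770-27216839: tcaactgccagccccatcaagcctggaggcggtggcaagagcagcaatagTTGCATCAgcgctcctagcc
The Slc7a11 stretch holds 2 matches, 1 on each strand. Counted from its RefSeq start, the match of Trib3 lies 15 to 22 bases into the transcribed sequence. In GENCODE M21 the gene starts at 152344032, and the match lies before that start. The match of Slc1a4 spans the start itself. For Vldlr the match is in 1 of its 2 windows. The element CACGTG, the E-box bound by MYC and related factors, was found by the same search for 3 of the 31 genes (9.68%), against 8.09% of all symbols. These were Aldh18a1, Cbs and Slc43a1. All symbols include genes that were not tested here, whereas the 31 genes were. Of genes with a window tested in the Male comparison, 1251 held CACGTG and 9943 did not. For TGATGNAA these numbers were 314 and 10880. A match is a description of the letters and shows no binding.

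Total counts ranged from 78748647 to 110803318 per sample. Kdm5d, the targeted gene, fell from 50.9 ± 2.22 CPM (counts scaled to a library total of 1000000; SD, n = 3) in WT to 22.0 ± 0.762 CPM (SD, n = 3) in KD (log2 fold change -1.21, edgeR adjusted p 3.13e-08), and was at 50.8 CPM in Male. All 11 CD8 T cell markers were detected, and their summed level was 3639 to 3714 CPM in Female and 3379 to 3412 in Male, and 3812 to 3858 in WT and 3496 to 3554 in KD. The sums did not overlap, with 7 of the 11 called lower in Male and 5 in KD, against 26.3% and 18.4% of all genes. In each comparison 1 was called higher, which in Male was Lck (log2 fold change 0.26, edgeR adjusted p 2.47e-07). Among markers of other cells, Ms4a1 and the haemoglobin genes Hbb-bs, Hba-a1 and Hba-a2 had no counts in any sample, and Cd4 was at most 0.201 CPM. Ighm stood out among 6 B cell markers, whose list summed to 607 to 613 CPM in Female, 303 to 322 in Male, 259 to 264 in WT and 291 to 300.1 in KD. The 4 CD4 T cell markers, mostly Zbtb7b, summed to 88.7 to 90.8 CPM in Female, 54.8 to 58.6 in Male, 44.9 to 47.3 in WT and 41.0 to 43.7 in KD. Foxp3, on the same list, went the other way in Male, from 2.82 to 4.38 CPM (log2 fold change 0.63, edgeR adjusted p 0.0208). The 8 myeloid and dendritic markers, mostly Cst3, summed to 18.6 to 22.2 CPM in Female, 21.5 to 23.2 in Male, 27.5 to 30.4 in WT and 27.8 to 30.8 in KD. The 4 NK cell markers summed to 1.26 to 1.31 CPM in Female, 0.918 to 1.27 in Male, 2.51 to 3.40 in WT and 1.35 to 1.79 in KD. The part of any of these lists in the results was not tested. In bulk samples, fewer cells of a type and less RNA per cell cannot be told apart.

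A mean of at least 100 CPM was reached by 16 genes in Female, 17 in Male, 16 in WT and 14 in KD, and 6, 5, 12 and 12 genes lay under 10 CPM. Per kilobase of exon, the highest mean level was that of the mitochondrial serine hydroxymethyltransferase Shmt2 in Female (151 CPM per kb), of the amino acid transporter Slc7a5 in Male (266), of the mTORC1 inhibitor Ddit4 in WT (125) and of the serine synthesis enzyme Phgdh in KD (122). The 2 tables were prepared and scaled separately, so levels in Male and WT are set side by side without a test. For 23 of the 35 genes the WT and KD means both lay below the Female and Male means, and for 5 (Cbs, Ddit4, Eif2ak3, Mthfd1 and Shmt1) both lay above. The gap was at least 3-fold for Atf5, Chac1, Cth, Ddit3, Pycr1, Slc1a4, Slc6a9 and Trib3. Ddit3 was at 27.4 and 28.3 CPM in Female and Male and at 6.24 and 5.76 CPM in WT and KD, and Slc6a9 was at 35.8, 35.3, 2.29 and 1.13 CPM in the same order.

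**Figure D1:**
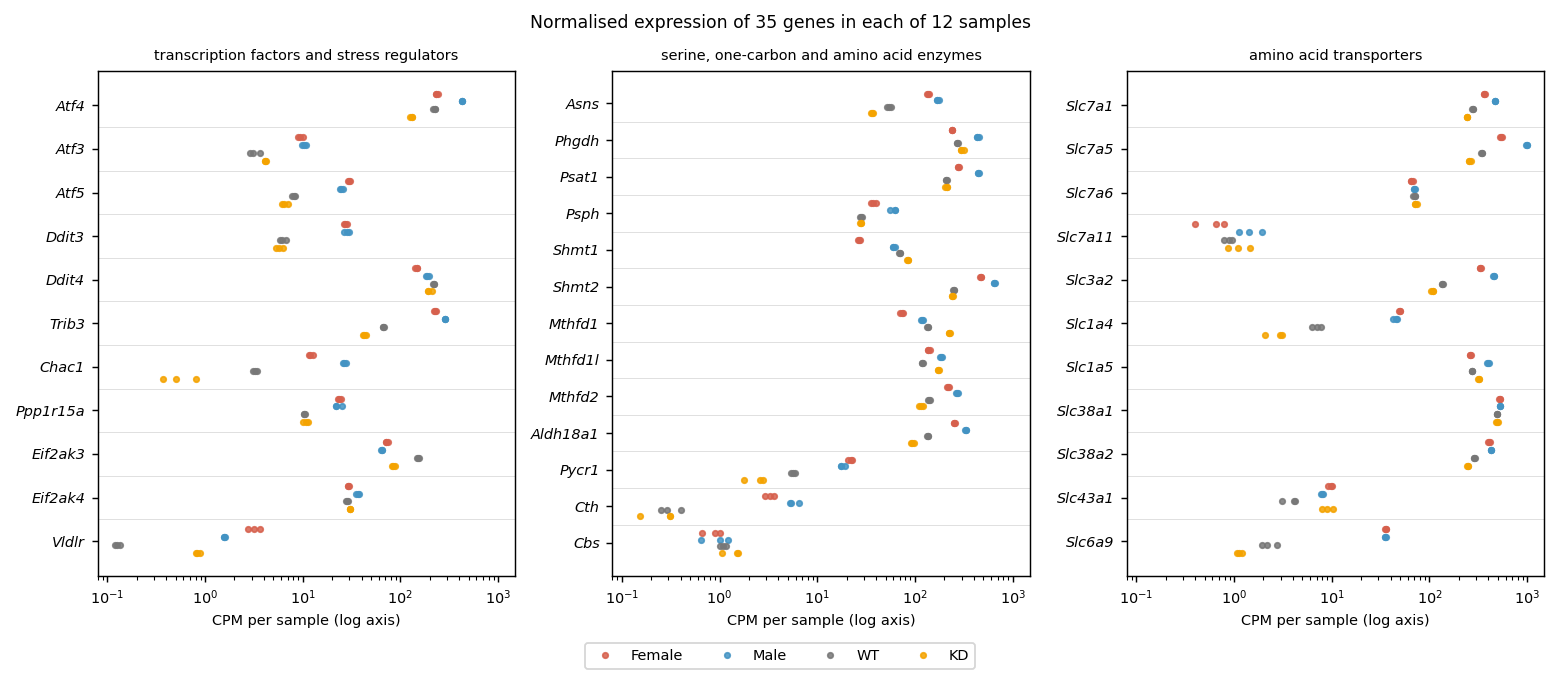
Each point is 1 sample, with its normalised expression in CPM on a log axis, for the 35 genes in 3 panels by role; colours give the 4 groups of 3 samples. Replicates of most genes lie close together, with more spread for some genes at low levels, such as Slc7a11, Pycr1 and Slc1a4 in KD. Atf4 is highest in Male and lowest in KD.

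Male cells were compared with Female cells to describe how the pathway differs by sex after activation. Atf4, 11 of the 13 enzymes and the main glutamine and leucine carriers were higher in Male, by 1.81-fold for Atf4, 1.23 to 2.26-fold for the enzymes and 1.83-fold for the leucine carrier Slc7a5. Of the 35 genes, 29 were called at an edgeR adjusted p under 0.05, 23 higher and 6 lower in Male. Over all 20208 genes tested, 49.8% were called, 23.5% higher and 26.3% lower. The median log2 fold change was 0.33 for the 35 genes and 0.011 for all genes. Most of the 35 genes are well expressed. Among those with a mean of at least 10 CPM, 25 of 29 were called, against 75.7% of 9276 such genes, with 21 higher against 34.6% and 4 lower against 41.1%. With an absolute log2 fold change of at least 0.5 as well, 12 of the 35 were called, against 21.4% of all genes, with 11 higher against 10.5% and 1 lower against 10.9%. The groups did not overlap in CPM for 29 of the 35 genes, against 58.3% of all genes.

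KD cells were compared with WT cells to see what follows delivery of Cas9 with the Kdm5d guide. Atf4 fell to 0.58 of its WT level. Asns, for asparagine synthesis, and both proline synthesis enzymes on the list were also lower. So were the glutathione-degrading enzyme Chac1, the pseudokinase Trib3 and the neutral amino acid carrier Slc1a4. Folate enzymes of the cytosol and the formate end of the mitochondrial pathway rose, as did Phgdh, Atf3 and Vldlr. Psat1, Psph, Shmt2 and Ddit3 were not called. Whether any of these changes follow that of Atf4 was not tested. Of the 35 genes, 24 passed the test, of which 16 fell and 8 rose. Over all 20413 genes tested, 35.1% were called, 16.8% higher and 18.4% lower. The median log2 fold change was -0.12 for the 35 genes and 0.012 for all genes. Among those with a mean of at least 10 CPM, 16 of 23 were called, against 57.8% of 9095 such genes, with 11 lower against 32.9% and 5 higher against 24.9%. With an absolute log2 fold change of at least 0.5 as well, 13 of the 35 were called, against 9.95% of all genes, with 9 lower against 4.64% and 4 higher against 5.31%. The groups did not overlap for 27 of the 35 genes, against 46.8% of all genes.

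**Figure D2:**
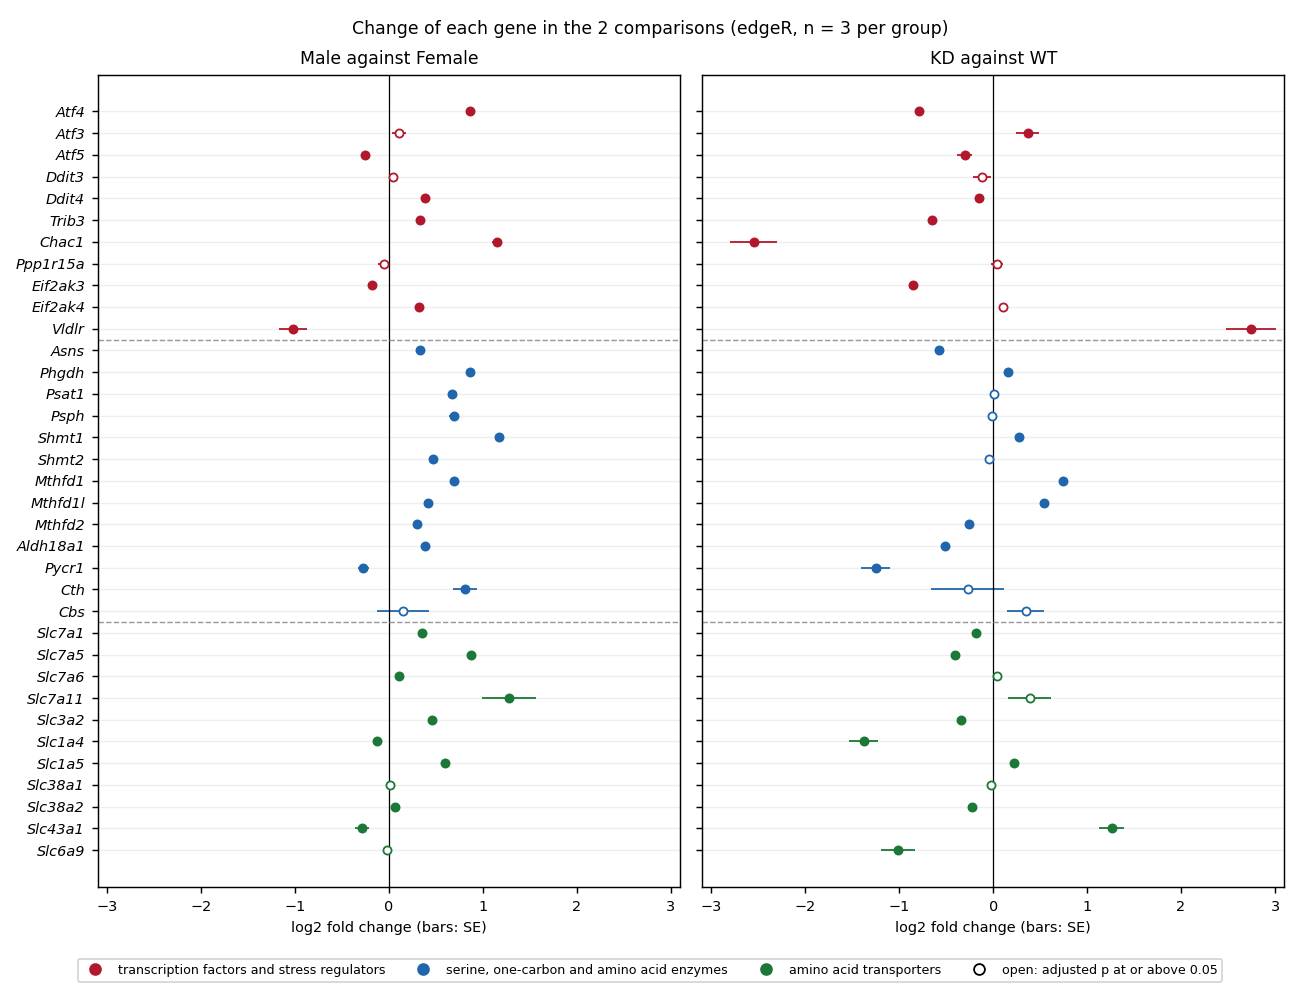
Log2 fold changes with standard errors for the 35 genes, Male over Female at left and KD over WT at right; filled points had an edgeR adjusted p under 0.05 and dashed lines part the roles. In Male 23 genes are called to the right of 0 and 6 to the left, and in KD 8 to the right and 16 to the left.

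Among the transcription factors, Atf4 (ENSMUSG00000042406, chromosome 15, 80255184 to 80257541) was at 234, 229.9 and 239.7 CPM in the Female samples and 428, 423 and 424 CPM in the Male samples. The 3 Male samples lay well above the 3 Female samples, and the rise was 1.81-fold (log2 fold change 0.86, SE 0.021, edgeR adjusted p 4.51e-10). In the electroporated cells it was at 216, 224 and 228 CPM in WT and 130.3, 132 and 124 CPM in KD. Here the KD samples were all lower, without overlap (log2 fold change -0.79, SE 0.03, edgeR adjusted p 3.17e-08). Atf5, a related factor linked to mitochondrial stress, fell in both comparisons, from 29.7 to 24.8 CPM in Male (log2 fold change -0.26, edgeR adjusted p 0.000424) and from 8.11 to 6.57 CPM in KD (log2 fold change -0.30, edgeR adjusted p 0.0158). The KD call for Atf5 was lost without WT replicate 2 (adjusted p 0.0613) or without KD replicate 1 (0.0574). Its exons overlap Nup62 and Il4i1 on the opposite strand, and whether the counting used strand is not given in the sources used here.

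Atf3, an immediate stress-response factor, was at 9.53 and 10.3 CPM in Female and Male, which overlapped (log2 fold change 0.11, edgeR adjusted p 0.266). In KD it rose from 3.11, 2.87 and 3.67 CPM to 4.11, 4.22 and 4.11 CPM (log2 fold change 0.37, SE 0.12, edgeR adjusted p 0.038). That call was close to the threshold: it was lost in 5 of 6 fits that left out a sample (adjusted p 0.07 to 0.127), all but the fit without WT replicate 3, and with the replicate block (0.0586). Ddit3, which encodes the death-linked factor CHOP, did not pass the test in either comparison, with log2 fold changes of 0.044 in Male and -0.12 in KD (edgeR adjusted p 0.496 and 0.408). Its exons overlap those of Mars on the opposite strand.

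Chac1 (ENSMUSG00000027313, chromosome 2, 119351229 to 119354381) encodes an enzyme that breaks down glutathione and is a known ATF4 target. Its levels were 12.6, 11.6 and 11.9 CPM in Female and 26.5, 25.7 and 27.6 CPM in Male, a 2.21-fold rise without overlap (log2 fold change 1.15, SE 0.052, edgeR adjusted p 3.34e-08). In WT it was at 3.28, 3.37 and 3.13 CPM and in KD at 0.813, 0.368 and 0.507 CPM. Every KD sample was under 1 CPM while the WT samples were tightly grouped (log2 fold change -2.55, SE 0.25, edgeR adjusted p 2.53e-05), and the libraries held 40 to 359 counts of it. This was the lowest fold change of the 35 genes in KD.

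Trib3, a pseudokinase that restrains AKT and ATF4, rose from 225, 222 and 234 CPM in Female to 285, 286 and 283 CPM in Male (log2 fold change 0.33, edgeR adjusted p 1.03e-06) and fell from 66.7, 67.9 and 67.1 CPM in WT to 44.7, 41.2 and 42.9 CPM in KD (log2 fold change -0.65, edgeR adjusted p 5.37e-07). Ddit4, or REDD1, which lowers mTORC1 activity, rose and fell as Trib3 did, from 146 to 190.5 CPM in Male (log2 fold change 0.39, edgeR adjusted p 2.07e-06) and from 219 to 197 CPM in KD (log2 fold change -0.15, edgeR adjusted p 0.00816). Ppp1r15a, the phosphatase subunit GADD34 that reverses eIF2 phosphorylation, passed the test in neither comparison, with log2 fold changes of -0.052 in Male and 0.042 in KD (edgeR adjusted p 0.511 and 0.678).

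Eif2ak3 and Eif2ak4 are the eIF2 kinases among the 35 genes. Eif2ak3 was at 71.0, 72.0 and 74.2 CPM in Female and 64.6, 63.7 and 64.1 CPM in Male, a small fall (log2 fold change -0.18, edgeR adjusted p 0.000245). In WT it was at 152, 153 and 149 CPM and in KD at 87.4, 83.4 and 81.6 CPM. The KD samples were all far under the WT samples (log2 fold change -0.85, SE 0.03, edgeR adjusted p 2.1e-08). Eif2ak4 rose in Male from 29.3 to 36.5 CPM (log2 fold change 0.32, edgeR adjusted p 7.24e-05) and was at 28.4 and 30.6 CPM in WT and KD, just short of the threshold (log2 fold change 0.10, edgeR adjusted p 0.0539). It passed in 4 of 9 other settings, over which the adjusted p ran from 0.017 to 0.0912.

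Vldlr (ENSMUSG00000024924, chromosome 19, 27216484 to 27254231), a lipoprotein receptor that can be induced through ATF4, moved the opposite way to Atf4. It was at 3.17, 3.67 and 2.78 CPM in Female and 1.55, 1.58 and 1.60 CPM in Male, lower in each Male sample (log2 fold change -1.02, SE 0.15, edgeR adjusted p 0.000201). In WT it was at 0.119, 0.124 and 0.134 CPM and in KD at 0.813, 0.838 and 0.890 CPM, higher in each KD sample (log2 fold change 2.74, SE 0.26, edgeR adjusted p 2.11e-05). These were low levels, with 12 to 91 counts per library in the WT and KD table.

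Serine is made from a glycolytic intermediate in 3 steps by Phgdh, Psat1 and Psph, and the whole route was higher in Male. Phgdh was at 240.5, 241 and 238 CPM in Female and 431, 447 and 432 CPM in Male, with no overlap (log2 fold change 0.86, SE 0.021, edgeR adjusted p 4.25e-10). Psat1 rose from 279 to 444 CPM (log2 fold change 0.67, edgeR adjusted p 2.22e-09) and Psph from 37.3 to 60.1 CPM (log2 fold change 0.69, edgeR adjusted p 1.9e-06). In KD, Phgdh rose slightly, from 266, 271 and 273 CPM to 294, 316 and 296 CPM (log2 fold change 0.16, edgeR adjusted p 0.00125). Psat1 was at 209 and 210.2 CPM in WT and KD (log2 fold change 0.0088, edgeR adjusted p 0.828), and Psph at 28.1 and 27.9 CPM (log2 fold change -0.0093, edgeR adjusted p 0.886), neither past the test. Of the 31-base stretches of Phgdh transcripts, 56.3% also occur in other transcripts, chiefly the gene models Gm7901, Gm9347 and Gm8341, so its values depend on how such reads were assigned, which is not known here. Gm7901 read 6.90, 12.5, 7.64 and 10.6 CPM in Female, Male, WT and KD. The exons of Psph overlap those of Cct6a on the opposite strand, with 9.79% of its 31-base stretches shared. Cct6a was at 244 and 321 CPM in Female and Male (log2 fold change 0.39, edgeR adjusted p 2.51e-07).

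Serine hands its carbon unit to folate through Shmt1 in the cytosol and Shmt2 in mitochondria. Shmt1 was at 27.5, 26.6 and 26.2 CPM in Female and 59.5, 61.9 and 59.8 CPM in Male, a 2.26-fold rise (log2 fold change 1.18, SE 0.034, edgeR adjusted p 1.5e-09). It rose in KD as well, from 70.7, 68.7 and 70.5 CPM to 84.5, 83.4 and 85.5 CPM (log2 fold change 0.27, edgeR adjusted p 3.49e-05). Shmt2 rose in Male, from 470.1 to 649 CPM (log2 fold change 0.46, edgeR adjusted p 3.71e-09), and was at 249 and 241 CPM in WT and KD, where it was not called (log2 fold change -0.047, edgeR adjusted p 0.0958). Exons of Shmt1 overlap Smcr8 and those of Shmt2 overlap Ndufa4l2 on the opposite strand, as do those of Eif2ak3 with Gm43292 and of Ppp1r15a with Tulp2.

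The folate-bound unit is then carried on by Mthfd2 and Mthfd1l in mitochondria and by Mthfd1 in the cytosol. The 3 enzymes were higher in Male, with log2 fold changes of 0.30, 0.42 and 0.70 in that order (edgeR adjusted p 1.31e-06, 2.95e-07 and 2.59e-08). In KD they parted. Mthfd1 rose from 136, 131 and 137 CPM in WT to 228, 224 and 223 CPM in KD (log2 fold change 0.74, SE 0.024, edgeR adjusted p 1.05e-08). Mthfd1l, which releases formate from mitochondria, rose from 121, 119 and 119 CPM to 174, 176 and 174 CPM (log2 fold change 0.54, edgeR adjusted p 5.06e-08). Mthfd2, a recognised ATF4 target, fell from 135, 138 and 142 CPM to 122, 109.6 and 116 CPM (log2 fold change -0.25, edgeR adjusted p 0.000482). None of these samples overlapped between WT and KD.

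RNA of Asns and Aldh18a1, for asparagine and proline synthesis, was lower in KD. Asns, the asparagine synthetase, was at 54.0, 51.8 and 56.5 CPM in WT and 37.0, 36.5 and 35.4 CPM in KD (log2 fold change -0.58, SE 0.041, edgeR adjusted p 2.6e-06). Aldh18a1, which makes the proline precursor from glutamate, fell from 132, 135 and 137 CPM to 94.2, 91.4 and 97.1 CPM (log2 fold change -0.52, edgeR adjusted p 5.13e-07). Both had risen in Male over Female, from 136 to 171 CPM and from 253 to 329 CPM (log2 fold changes 0.33 and 0.38, edgeR adjusted p 3.66e-06 and 9.44e-08).

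Pycr1 (ENSMUSG00000025140, chromosome 11, 120635712 to 120643769), the last enzyme of proline synthesis in mitochondria, was at 5.44, 5.66 and 5.92 CPM in WT and 1.79, 2.57 and 2.77 CPM in KD, a fall to 0.42 of the WT level with no overlap (log2 fold change -1.25, SE 0.15, edgeR adjusted p 0.000126). Unlike Asns and Aldh18a1 it was also lower in Male, from 21.8 to 18.1 CPM (log2 fold change -0.28, edgeR adjusted p 0.00267), and was the 1 enzyme of 13 called lower there. The related gene Pycrl, not among those picked, was at 23.05 and 21.3 CPM in WT and KD. It was not called in KD (log2 fold change -0.11, edgeR adjusted p 0.112).

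Cbs and Cth turn homocysteine into cysteine. Cbs was near 1 CPM in all groups and was called in neither comparison, with log2 fold changes of 0.15 in Male and 0.35 in KD (edgeR adjusted p 0.69 and 0.221). Cth rose in Male from 3.59, 2.92 and 3.27 CPM to 6.50, 5.35 and 5.26 CPM (log2 fold change 0.81, edgeR adjusted p 0.0004). In WT and KD it had only 15 to 44 counts per library and was not called (log2 fold change -0.27, edgeR adjusted p 0.649).

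Of the 13 enzymes, 11 were called higher and 1 lower in Male, with a median log2 fold change of 0.46, against 23.5% higher and 26.3% lower over all genes. In KD 4 were called higher and 4 lower, with a median of -0.0093, against 16.8% and 18.4% over all genes.

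Among the transporters, Slc7a5 and Slc3a2 encode the light and heavy chains of the exchanger for large neutral amino acids such as leucine. Slc7a5 was at 535, 546 and 533 CPM in Female and 980.3, 992 and 986 CPM in Male (log2 fold change 0.87, SE 0.016, edgeR adjusted p 6.64e-11). In the other table it fell from 342, 344 and 341 CPM in WT to 252, 265 and 256 CPM in KD (log2 fold change -0.41, edgeR adjusted p 4e-07). The heavy chain moved with it: Slc3a2 rose from 329 to 453 CPM in Male (log2 fold change 0.46, edgeR adjusted p 1.09e-08) and fell from 136 to 107 CPM in KD (log2 fold change -0.34, edgeR adjusted p 5.72e-06). Slc7a6, another light chain that pairs with Slc3a2, rose by a log2 fold change of 0.11 in Male (edgeR adjusted p 0.0114), which was lost without Female replicate 1 or 3 or without Male replicate 1 (adjusted p 0.0549, 0.052 and 0.0606). In KD it was not called (log2 fold change 0.043, edgeR adjusted p 0.354).

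The cationic amino acid carrier Slc7a1, which brings in arginine and lysine, rose in Male from 364 to 466 CPM (log2 fold change 0.36, edgeR adjusted p 6.49e-08) and fell in KD from 276 to 242 CPM (log2 fold change -0.19, edgeR adjusted p 4.43e-05). The cystine carrier Slc7a11, which feeds glutathione synthesis, was scarce: it was at 0.401, 0.659 and 0.781 CPM in Female and 1.41, 1.12 and 1.96 CPM in Male. The Male samples were all above the Female ones (log2 fold change 1.28, SE 0.29, edgeR adjusted p 0.00417), from 34 to 173 counts per library. Its WT and KD values overlapped (log2 fold change 0.39, edgeR adjusted p 0.236).

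Neutral amino acids also enter through Slc1a4 and Slc1a5, and these related genes went apart in KD. Slc1a4 (ENSMUSG00000020142, chromosome 11, 20302180 to 20332713) was at 7.15, 6.21 and 7.74 CPM in WT and 2.96, 2.09 and 3.08 CPM in KD, without overlap (log2 fold change -1.38, SE 0.15, edgeR adjusted p 6.22e-05). Slc1a5, the main glutamine carrier of activated T cells, rose from 274, 275 and 275 CPM to 312, 323 and 322 CPM (log2 fold change 0.22, edgeR adjusted p 1.55e-05). In Male, Slc1a5 was higher than in Female, at 397 against 262 CPM (log2 fold change 0.60, edgeR adjusted p 4.56e-09). Slc1a4 was slightly lower, at 45.3 against 49.3 CPM (log2 fold change -0.12, edgeR adjusted p 0.0242), a call lost without Female replicate 2 or 3 (adjusted p 0.0684 and 0.062) and with all 12 samples in one fit (0.221).

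Slc38a1 and Slc38a2 are sodium-coupled glutamine carriers, of which Slc38a2 is the one known to rise when amino acids are short. Slc38a1 was at 524, 528, 494 and 486 CPM in Female, Male, WT and KD, and was not called in either comparison (log2 fold changes 0.013 and -0.023, edgeR adjusted p 0.601 and 0.418). Slc38a2 fell in KD from 287 to 246 CPM (log2 fold change -0.22, edgeR adjusted p 1.75e-05). Its rise in Male was small (log2 fold change 0.069, edgeR adjusted p 0.026) and was lost in 4 of 6 fits that left out a sample, those without Female replicate 2 or any of the Male replicates (adjusted p 0.0624 to 0.108).

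Slc43a1, a facilitative carrier of large neutral amino acids, went up in KD while Slc7a5, which carries similar substrates, went down. It was at 3.12, 4.23 and 4.08 CPM in WT and 8.01, 10.4 and 8.89 CPM in KD, higher in each KD sample (log2 fold change 1.26, SE 0.14, edgeR adjusted p 4.91e-05). In Male it fell from 9.72 to 7.95 CPM (log2 fold change -0.29, edgeR adjusted p 0.00703). The glycine carrier Slc6a9 fell in KD from 1.92, 2.77 and 2.19 CPM to 1.06, 1.12 and 1.21 CPM (log2 fold change -1.02, edgeR adjusted p 0.0014) and was not called in Male (log2 fold change -0.018, edgeR adjusted p 0.714). Of its 31-base stretches 28.5% are shared, mostly with Ccdc24 and Gm17114 on the opposite strand, so its counts are uncertain.

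In Male, 7 of the 11 transporters were called higher and 2 lower, and 5 of the 11 regulators higher and 3 lower, against 23.5% higher and 26.3% lower over all genes. In KD, 2 of the 11 transporters were called higher and 6 lower, and 2 of the 11 regulators higher and 6 lower, against 16.8% and 18.4% over all genes. The 2 called higher in KD in each group are near the share over all genes.

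The 2 comparisons share no samples, so their calls were set against each other. Of the 35 genes, 22 were called in both, and 13 of these (59.1%) moved in opposite directions, against 55.1% of the 5014 genes called in both, which is near the background. The split among the 4 combinations was less even. Higher in Male and lower in KD were 11 genes (31.4%), against 7.33% of 19529 genes tested in both: Atf4, Trib3, Chac1, Ddit4, Asns, Aldh18a1, Mthfd2, Slc7a1, Slc7a5, Slc3a2 and Slc38a2. Higher in both were 5 genes (14.3%, against 4.92%): Phgdh, Shmt1, Mthfd1, Mthfd1l and Slc1a5. Lower in both were Atf5, Eif2ak3, Pycr1 and Slc1a4 (11.4%, against 6.62%), and lower in Male and higher in KD were Vldlr and Slc43a1 (5.71%, against 6.82%). The 35 genes were also called more often than all genes in each comparison, and leaned to higher in Male (23 of 35) and lower in KD (16 of 35). These leans alone raise the shares of some combinations above those of all genes. Whether the split goes beyond them was not tested.

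**Figure D3:**
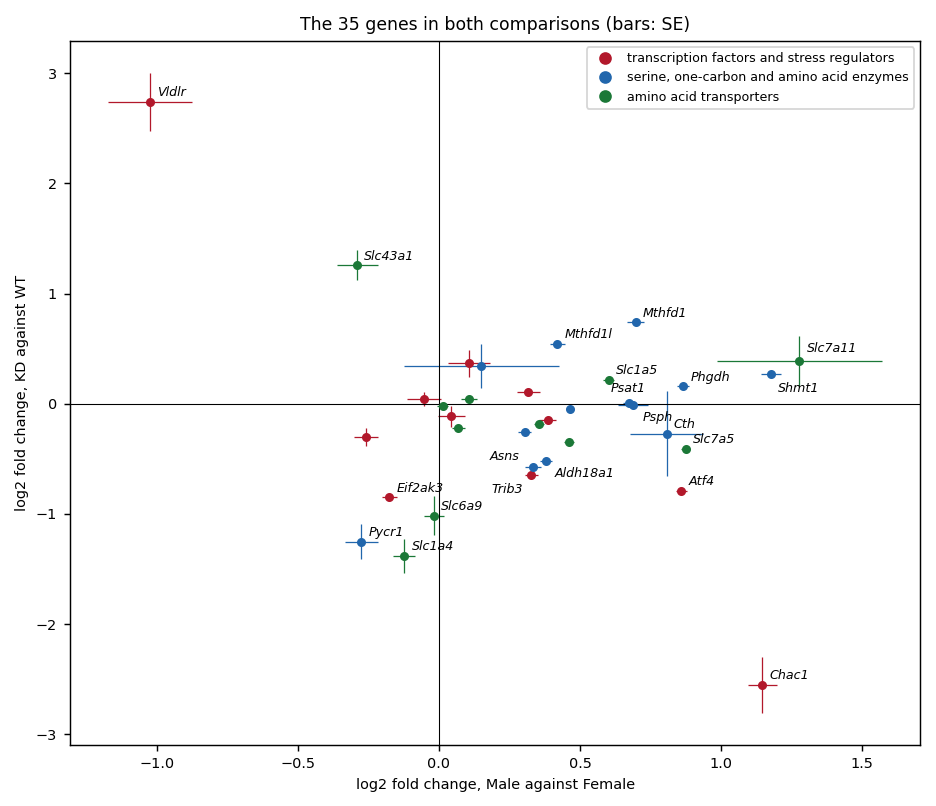
Log2 fold change of Male over Female (horizontal) against KD over WT (vertical) for the 35 genes, with standard errors as bars and roles as colours. Atf4, Chac1 and Slc7a5 lie at lower right, the folate enzymes Mthfd1 and Mthfd1l at upper right, and Vldlr alone at far upper left.

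The genes that carry TGATGNAA near their start were then read as a group. In KD, Chac1, Slc1a4, Pycr1, Trib3 and Asns were called lower, Vldlr and Atf3 higher, and Slc7a11 was not called, with a median log2 fold change of -0.61. The other 23 genes with a promoter window had a median of -0.047, with 10 called lower and 5 higher. Over all genes with a window, 28.1% of 317 with the motif and 24.7% of 10968 without it were called lower in KD, and 17% and 21.3% higher. In Male, 4 of the 8 were called higher (Chac1, Trib3, Asns and Slc7a11) and 3 lower (Vldlr, Pycr1 and Slc1a4), with a median log2 fold change of 0.22. The other 23 genes with a window had 16 called higher and 3 lower in Male, with a median of 0.36. Over all genes with a window, 26.8% of 314 with the motif and 26.8% of 10880 without it were called higher in Male, and 31.2% and 35.1% lower. The printed stretches are short parts of each promoter, and matches outside the 300-base windows were not searched.

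**Figure D4:**
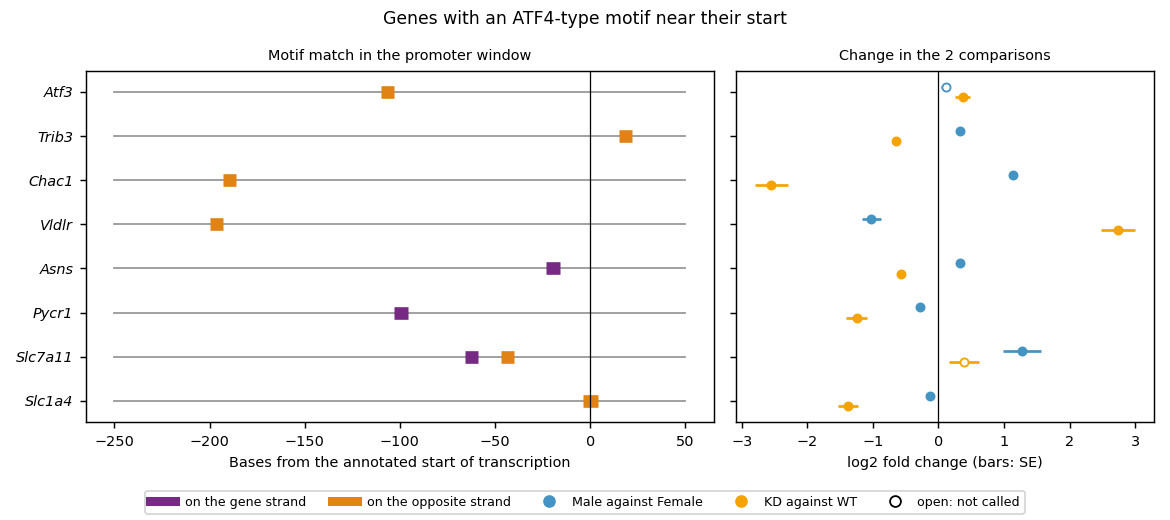
Left, position of each TGATGNAA match from 250 bases before to 50 bases after the annotated start, coloured by strand, for the 8 genes that hold one; right, their log2 fold changes with standard errors. Of the 8 genes, 5 are called lower in KD, 2 are called higher and Slc7a11 is open.

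Genes that work beside the 35 were counted in the same fits. Each count below stands beside the shares over all genes tested, 23.5% higher and 26.3% lower in Male and 16.8% and 18.4% in KD. Among genes with a mean of at least 10 CPM, 75.7% were called in Male and 57.8% in KD. Cytosolic aminoacyl-tRNA synthetases, which charge tRNA with amino acids, leaned opposite ways in the comparisons: 16 of 20 were called higher and 2 lower in Male (median log2 fold change 0.41), and 13 were called lower and 3 higher in KD (median -0.20). In KD, Cars fell from 53.7 to 26.1 CPM (log2 fold change -1.04, edgeR adjusted p 4.9e-08), Sars from 116 to 82.0 CPM (log2 fold change -0.50, edgeR adjusted p 2.94e-07) and Aars from 191 to 138 CPM (log2 fold change -0.47, edgeR adjusted p 3.19e-07). Wars, Farsb and Kars were the 3 called higher in KD, with log2 fold changes of 0.23, 0.13 and 0.088 (edgeR adjusted p 0.000208, 0.00532 and 0.00776). In Male, Lars, Farsb and Gars were higher with log2 fold changes of 0.89, 0.95 and 0.66 (edgeR adjusted p 2.88e-10, 3.76e-09 and 8.75e-09), and the 2 called lower were Vars and Qars (log2 fold changes -0.049 and -0.077, edgeR adjusted p 0.0172 and 0.0302).

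The XBP1 and ATF6 arms of the unfolded protein response run in parallel with PERK and drive chaperones of the endoplasmic reticulum. In Male 14 of 20 genes were called higher and 3 lower (median 0.63), with Hspa5, the chaperone BiP, rising from 221 to 454 CPM (log2 fold change 1.04, edgeR adjusted p 6.1e-11) and Hsp90b1 from 269.8 to 557 CPM (log2 fold change 1.05, edgeR adjusted p 9.14e-11). The 3 called lower in Male were Sel1l, Atf6 and Ern1, with log2 fold changes of -0.30, -0.24 and -0.18 (edgeR adjusted p 2.92e-06, 1.23e-05 and 0.0104). In KD 11 were called lower and 2 higher, by little (median -0.069). None of the 20 changed by 0.5 log2 units or more in KD. Herpud1 fell from 113 to 84.2 CPM (log2 fold change -0.43, edgeR adjusted p 3.69e-06), and Calr rose from 778 to 863 CPM (log2 fold change 0.15, edgeR adjusted p 9.68e-05).

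The other genes of the eIF2 machinery were mostly higher in Male, with 7 of 11 called higher and 2 lower (median 0.18), and in KD 4 were called lower and none higher (median -0.075). Over all genes 35.1% were called in KD and 16.8% were called higher, and the 36.4% called of this list is near the first share. The largest of these changes was in Eif2ak2, or PKR, an interferon-induced eIF2 kinase, which rose from 34.5 to 97.1 CPM in Male (log2 fold change 1.49, edgeR adjusted p 1.1e-09) and fell from 81.4 to 57.0 CPM in KD (log2 fold change -0.51, edgeR adjusted p 5.72e-06). Further ATF4-linked genes did not move as a block. In Male 7 of 12 tested were called higher and 4 lower, with Ero1l at 0.92 and Cebpg, a partner of ATF4 in binding DNA, at -0.45 on the log2 scale (edgeR adjusted p 4.37e-10 and 5.23e-08). In KD 3 of 11 were called higher and 3 lower. The alanine transaminase Gpt2 fell from 5.83 to 2.47 CPM (log2 fold change -1.24, edgeR adjusted p 2.9e-05), Nupr1 from 1.70 to 0.493 CPM (log2 fold change -1.76, edgeR adjusted p 0.00212), and Stc2 rose (log2 fold change 0.65, edgeR adjusted p 7.6e-06).

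Of 24 other folate and one-carbon genes, 11 were called higher, 2 lower and 11 not called in KD (median log2 fold change 0.14). The purine synthesis enzymes Atic and Gart, which take up formyl units, rose from 204 to 287 CPM (log2 fold change 0.49, edgeR adjusted p 8.46e-08) and from 226 to 281 CPM (log2 fold change 0.31, edgeR adjusted p 7.49e-07). The thymidylate synthase Tyms rose from 60.6 to 83.2 CPM (log2 fold change 0.46, edgeR adjusted p 2.3e-06), and Ahcy, which clears the by-product of methylation, fell from 195 to 153 CPM (log2 fold change -0.35, edgeR adjusted p 8.57e-07). In Male 15 were called higher and 4 lower (median 0.18). The S-adenosylmethionine synthase Mat2a rose from 92.1 to 195 CPM (log2 fold change 1.08, edgeR adjusted p 1.96e-08).

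Enzymes of glutamine, aspartate, arginine and proline metabolism had 10 of 16 called higher and 4 lower in Male (median 0.35), and 4 higher and 5 lower in KD (median 0.0029). The share called in KD, 56.2%, was near the 57.8% of genes of at least 10 CPM. The proline-degrading enzyme Prodh rose in KD, from 1.08 to 3.67 CPM (log2 fold change 1.76, edgeR adjusted p 7.31e-06), while the proline synthesis genes Pycr1 and Aldh18a1 fell. Ass1, which makes argininosuccinate from citrulline and aspartate, rose from 77.6 to 140.2 CPM (log2 fold change 0.85, edgeR adjusted p 2.68e-07). In Male the polyamine enzyme Odc1 rose from 179 to 309 CPM (log2 fold change 0.79, edgeR adjusted p 1.03e-09).

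Amino acid transporters outside the 35 genes did not lean the same way in Male, with 6 of 17 called higher and 7 lower (median -0.21), nor did the mTORC1 amino acid sensing genes, with 11 of 28 called higher and 12 lower (median -0.069). The lysosomal carriers Slc38a9 and Slc38a7 were among those lower in Male, with log2 fold changes of -0.73 and -0.82 (edgeR adjusted p 1.62e-07 and 1.9e-06), as were the arginine sensor homologue Castor2 and the mTORC1 inhibitors Sesn3 and Tsc1, with -1.44, -0.71 and -0.56 (edgeR adjusted p 4.15e-09, 2.47e-09 and 2.57e-07). Others were called higher in Male: the carrier Slc25a22 (log2 fold change 0.86, edgeR adjusted p 3.32e-08) and the sensing genes Sesn2, Rheb and Lamtor3. The last 3 had log2 fold changes of 0.43, 0.29 and 0.36 (edgeR adjusted p 4.04e-07, 1.06e-05 and 4.09e-05). Sesn2, like Sesn3, is an mTORC1 inhibitor, so genes of this kind were called in both directions in Male. In KD 6 of the 17 transporters were called higher and 4 lower (median 0.10), and 5 of the 28 sensing genes higher and 10 lower (median -0.076). In either direction, 58.8% and 53.6% of these were called in KD. The share was 35.1% over all genes and 57.8% over genes of at least 10 CPM.

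**Figure D5:**
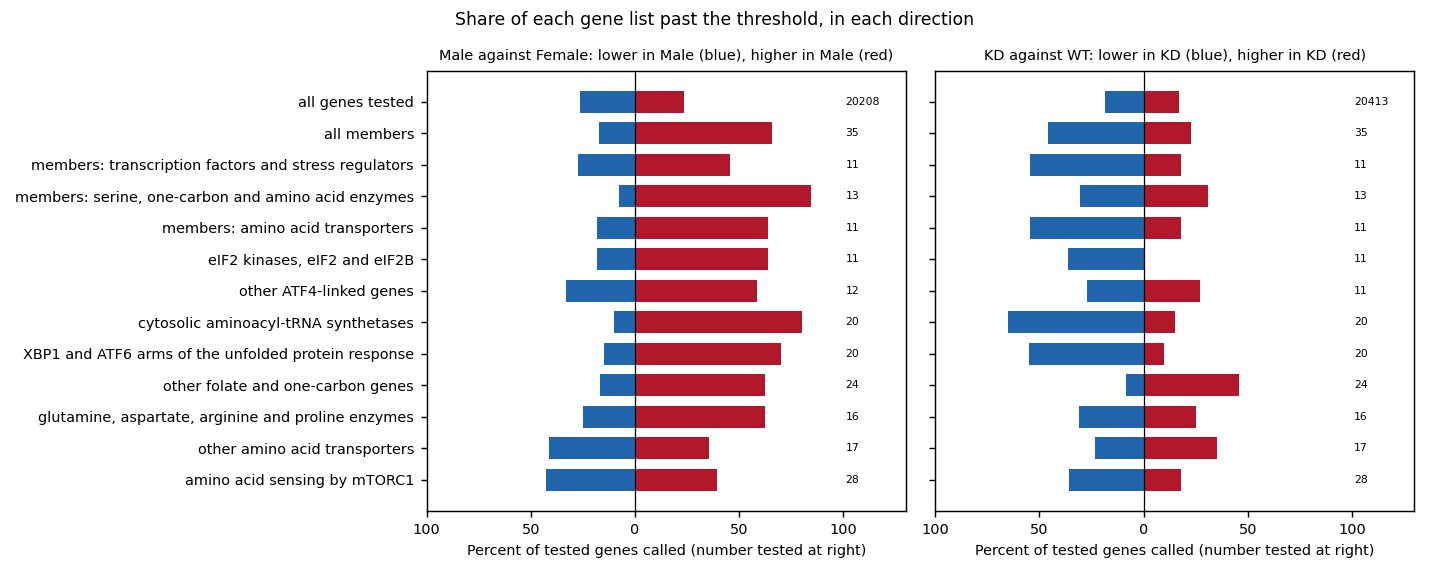
Percent of the tested genes of each list called lower (left, blue) or higher (right, red) in Male against Female and in KD against WT, with the number tested at the right; the top bar is all genes. The tRNA synthetases lean to the right in Male and to the left in KD. The eIF2 list has no gene called higher in KD, where its share called is near that of all genes.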

How the data were processed

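RNA was sequenced in 12 samples, 3 each of Female, Male, WT and KD, grouped by sample title. Libraries were ribosome-depleted stranded total RNA, per the labels' protocols. The authors deposited 2 tables of whole-number counts per gene, with 55487 identifiers each, 1 for each pair of groups compared. Per the submitters' processing notes, mm10, bcl2fastq 2.20.0, HISAT2, StringTie and DESeq2 were used, with no role given, so the counting tool, annotation and use of strand are not given in the sources used here. GENCODE M21 (GRCm38) matched 55227 identifiers and left 260, which took 2.89% to 3.45% of the counts of each sample.

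Each table was fitted alone with edgeR 4.0.16 in R 4.3.3 (filterByExpr, TMM, quasi-likelihood test, Benjamini-Hochberg over all genes tested), calling genes at an adjusted p under 0.05. The SE is the absolute log2 fold change over the root of the F statistic. CPM are counts scaled to a TMM-adjusted library total of 1000000. CPM per kb divides by merged exon length. The fit was tested on simulated data. Alternatives were DESeq2 1.42.0 as a test or its size factors, upper-quartile factors, limma-voom (limma 3.58.1), other low-count filters, counts divided by 4, all 12 samples in one fit, the replicate number as a block, a minimum fold change and leaving out each sample.

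The 35 genes and the other lists were chosen with earlier results of these data known, so no p-value is given over a list. Named genes are the 35, and of each other list up to 3 in each direction and comparison with the smallest p among called genes without overlap, not all of which are printed. Pycrl is named as well, beside Pycr1. Between 100 and 300 counts the median over genes of the replicate variance divided by the mean was 3.01 to 6.49. These counts were not scaled for library total, so the ratio holds differences in depth as well as replicate spread. It was highest in KD, where total counts ran from 78748647 to 107785015. No 2 libraries of the same count table were alike, with at most 1.56% of tested genes at equal counts. Libraries of different tables were not compared in this way.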

Additional observations from a re-analysis of the deposited data

How the results depend on the processing

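Over 9 alternative settings without a fold minimum, 27 to 29 of the 35 genes were called in the Male comparison (22 to 23 higher, 5 to 6 lower) and 23 to 26 in the KD comparison (7 to 9 higher, 16 to 17 lower). Leaving out 1 sample gave 27 to 28 (21 to 22 higher, 5 to 6 lower) and 22 to 24 (7 to 8 higher, 15 to 17 lower). Over all genes those fits called 9190 to 9399 in the Male comparison and 6073 to 6685 in the KD comparison. With an absolute log2 fold change of at least 0.5 as well, 12 of the 35 were called in Male, 11 higher and 1 lower, and 13 in KD, 4 higher and 9 lower, and over all genes 4321 and 2031 were called. With the replicate number as a block, 29 were called in Male (23 higher, 6 lower) and 23 in KD (7 higher, 16 lower). The block ended the KD call of Atf3 and changed no other. Deviations of same-numbered samples correlated at -0.011 and -0.012 on average in the Male and KD comparisons, so the numbers were not read as pairs.

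The calls of 26 of 29 and 22 of 24 genes held in all 6 fits that left out a sample, and of 27 of 29 and 23 of 24 in all 9 settings. The calls that were lost are those named above for Atf3, Atf5, Slc1a4, Slc38a2 and Slc7a6. Slc38a2 also lost its Male call without a low-count filter (adjusted p 0.12) and with all 12 samples in one fit (0.101), and Atf3 its KD call without a filter (0.0612). Shmt2 gained a KD call with all 12 samples in one fit (0.0357) and without KD replicate 2 (0.0371). No called gene changed direction. Some that were not called did: the log2 fold change of Slc38a1 in Male was -0.0017 without a filter, -0.0091 with all 12 samples in one fit and -0.0071 to 0.023 with 1 sample left out, and that of Cbs -0.065 to 0.36 with 1 sample left out. In KD, Psph was at 0.021 and Slc38a1 at 0.0077 with upper-quartile factors, and with 1 sample left out Psph ran from -0.028 to 0.0055 and Psat1 from -0.0052 to 0.027. The cause was not tested. Genes under 1 CPM, such as Vldlr and Chac1 in KD, rest on few counts.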
